A study of Mus musculus with 8 samples.

Results

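The lineage transcription factors of microglia were followed at the RNA level in primary microglia cultured with or without lipopolysaccharide (LPS), a component of the outer membrane of Gram-negative bacteria that activates these cells through Toll-like receptor 4. The group holds 9 genes, chosen by symbol for their known part in microglial and macrophage identity: Spi1, Cebpa, Cebpb, Cebpd, Maf, Mef2a, Mef2c, Runx1 and Bhlhe41. All 9 were found among the 52636 Ensembl gene identifiers of the count table, and all 9 were among the 13847 genes that passed the filter on low counts. The cells were labelled wild-type (WT) C57BL/6, the methods naming C57BL/6N as the strain of the pups, and received vehicle or 5 µg/ml LPS for 24 h, with 4 libraries per group labelled as biological replicates. They had been shaken off mixed glial cultures of neonatal brain and kept in serum with the growth factor CSF-1, so that all libraries share the exposure to serum, CSF-1 and an astrocyte layer. The sources do not say whether each replicate was a culture of its own litter, so p-values measure the spread between these libraries. Replicates 2 and 4 were closest to each other in both groups, so the 4 libraries may hold fewer than 4 independent cultures.

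These factors act as a layered network. PU.1, the product of Spi1, opens chromatin at macrophage enhancers and recruits partner factors, among them C/EBP, MAF, MEF2 and RUNX proteins. RUNX1 and PU.1 are needed to make the yolk sac macrophages from which microglia descend, while MEF2 factors and C/EBPα are counted among the regulators of the mature, resting state, and C/EBPβ and C/EBPδ among those of the inflammatory response.

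The libraries held 20071921 to 30604447 counts. Levels are given as CPM, the normalised read count of a gene relative to the library total after TMM scaling, which corrects for the make-up of a library. The TMM factors lay between 1.21 and 1.32 in vehicle and between 0.701 and 0.833 in LPS libraries, without overlap. All 13 microglial markers on the list were detected, with a summed level of 12286 to 15005 CPM in vehicle and 3839 to 4088 CPM in LPS libraries, and 10 of them fell while 1, the integrin gene Itgam, rose. Of the 7 tested astrocyte markers, 3 fell (Gfap, Aqp4 and Aldh1l1) and Gja1 rose, from 0.873 to 48.6 CPM on average. Their sum was 18.2 to 42.2 CPM in vehicle and 39.0 to 119 CPM in LPS libraries (7 of 8 above the floor of 3 counts, Gjb6 at 0). Gja1 alone held 0.639 to 1.07 CPM in vehicle and 28.9 to 98.1 CPM in LPS libraries. All 3 tested endothelial markers, Flt1, Cdh5 and Pecam1, rose, and the list summed to 31.1 to 73.5 and 163 to 254 CPM (3 of 6 above the floor, Cldn5 at 0). Of 7 tested markers of oligodendrocyte precursors, 3 fell (Cspg4, Olig1 and Olig2) and Vcan rose. Their sum was 27.5 to 142 CPM in vehicle, lowest in replicate 3, and 63.8 to 139 CPM in LPS libraries. Vcan alone held 5.52 to 21.8 CPM in vehicle and 37.2 to 104 CPM in LPS libraries. Of 5 tested oligodendrocyte markers, Cnp rose and Mbp fell, with sums of 150 to 205 and 188 to 238 CPM (6 of 7 above the floor, Mobp at 0). Cnp alone held 69.4 to 122 CPM in vehicle and 165 to 219 CPM in LPS libraries. Of 2 tested fibroblast markers, Dcn rose, from 0.136 to 8.90 CPM on average, and none fell, with sums of 0.497 to 4.31 and 5.30 to 21.4 CPM. Whether the RNA of these markers came from such cells or from the microglia was not tested, nor was any part of such cells in the results below. Summed markers of neurons stayed at or under 8.52 CPM, of neutrophils at or under 2.99 CPM and of lymphocytes at or under 1.09 CPM in every library.

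Of the 9 factors, 3 were higher and 4 lower after LPS at an adjusted p under 0.05, and 2 were not called. Cebpa and Mef2c fell to a small fraction of their vehicle level, Mef2a and Bhlhe41 fell less, Cebpb rose several-fold, and Spi1 and Maf rose by smaller amounts. Cebpd and Runx1 did not pass the test. LPS changed much of the transcriptome: 64.1% of all tested genes were called, 30.3% higher and 33.8% lower, and the median log2 fold change over all of them was -0.11. The 7 of 9 calls are read against that background, and the description rests on the size of each change and not on the number of calls. In RNA of whole cultures, fewer cells that express a gene and less of its RNA per cell cannot be told apart.

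**Figure D1:**
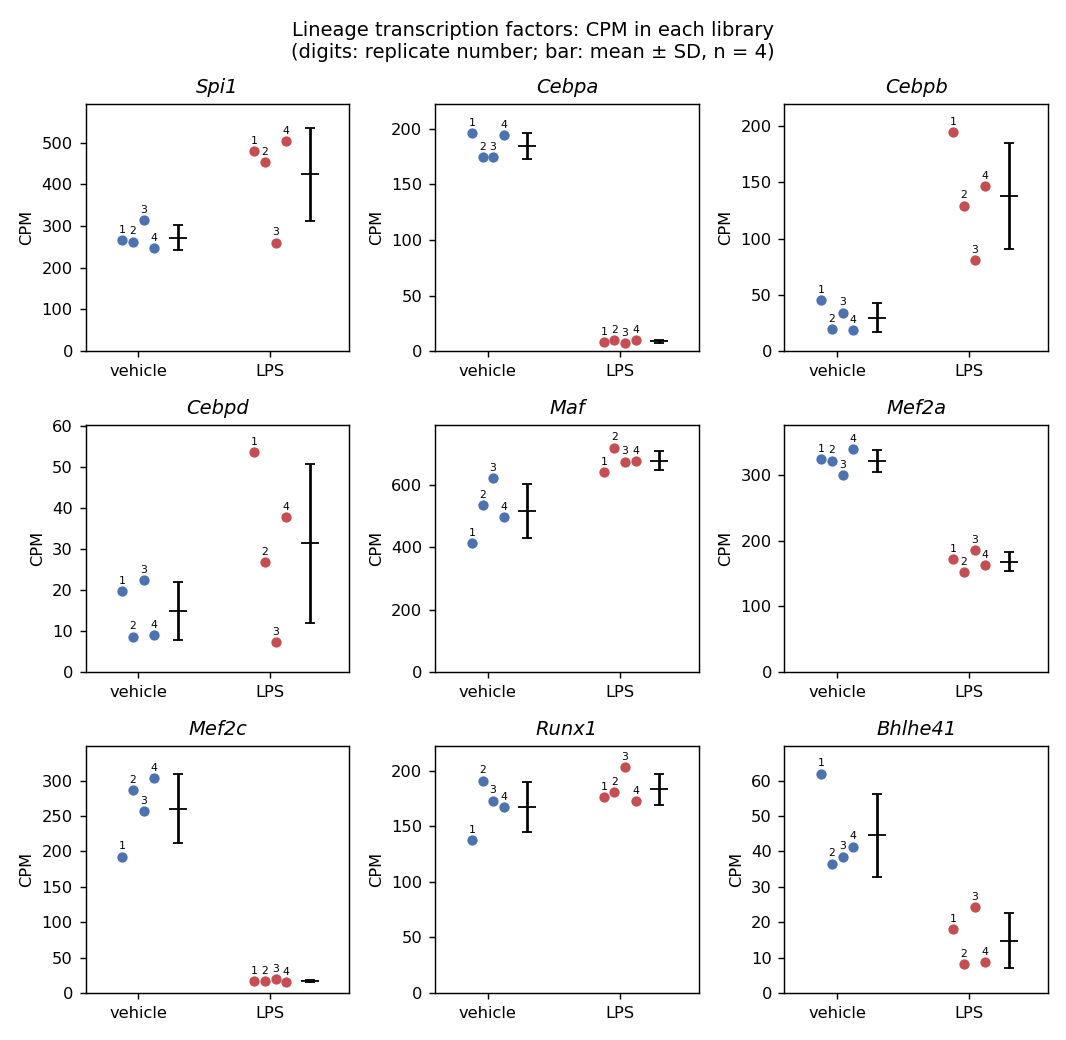
CPM of each lineage factor (vertical axes, linear from 0) in the 4 vehicle libraries (blue) and the 4 LPS libraries (red), with the replicate number above each point and the mean ± SD as a black bar. The groups lie apart for Cebpa, Cebpb, Maf, Mef2a, Mef2c and Bhlhe41. LPS replicate 3 lies inside the vehicle range for Spi1 and below it for Cebpd, and Runx1 overlaps between the groups. The share of all genes whose groups lie apart was not counted.

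Spi1 encodes PU.1, the ETS family factor that macrophages and microglia cannot form without. The gene lies at chr2:91082390-91115756 on the plus strand of GRCm38. Its level was 266, 262, 314 and 247 CPM in vehicle replicates 1 to 4 and 479, 453, 260.0 and 503 CPM in LPS replicates 1 to 4. LPS replicates 1, 2 and 4 lay above every vehicle library, and LPS replicate 3 lay inside the vehicle range, so that the groups overlapped. The fitted log2 fold change was 0.64 (SE 0.20, edgeR adjusted p = 0.0183), a rise that became -0.012 when libraries were scaled by their totals alone. Without LPS replicate 3 the log2 fold change was 0.82 (edgeR adjusted p = 2.40e-04). The call was lost without vehicle replicate 2 (edgeR adjusted p = 0.0512), vehicle replicate 4 (0.0549) or LPS replicate 4 (0.0525), and with upper quartile scaling (0.065).

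Cebpa encodes C/EBPα, a basic leucine zipper factor that directs myeloid differentiation and restrains cell division. It is a gene of 1 exon at chr7:35119293-35121928 on the plus strand. Vehicle replicates 1 to 4 held 196, 175, 175 and 194 CPM of Cebpa, whereas LPS replicates 1 to 4 held 8.14, 10.1, 7.23 and 9.95 CPM. Every LPS library lay far below every vehicle library, and the spread inside each group was small beside the gap. The mean fell from 185 ± 11.7 CPM to 8.86 ± 1.41 CPM (SD, n = 4 each), 20.9-fold lower, with a log2 fold change of -4.38 (SE 0.14, edgeR adjusted p = 4.25e-08). This was the largest change among the 9 factors. The deposited counts behind it were 5057 to 5604 in vehicle and 136 to 186 in LPS libraries.

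The 250 bases before the RefSeq start of Cebpa are shown because this gene fell most and because C/EBP proteins are known to bind their own promoters. They span chr7:35119043-35119292 of GRCm38.p6, plus strand, and are printed 5′ to 3′ with the C/EBP core TTGCG in capitals. It was searched on both strands and matched once, 185 bases before the start, and 14.5% of all 32851 promoter windows of this length hold a match.
Cebpa: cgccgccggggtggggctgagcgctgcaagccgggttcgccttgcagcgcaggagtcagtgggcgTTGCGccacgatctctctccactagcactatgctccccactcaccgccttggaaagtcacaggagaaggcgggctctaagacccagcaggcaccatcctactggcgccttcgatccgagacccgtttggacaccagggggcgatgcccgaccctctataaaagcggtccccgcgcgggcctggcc
A TATAAA match, held by 12.4% of all windows, lies 30 bases before the start and is left in lower case; these letters can also form part of the MEF2 motif. Such matches describe the letters and are not evidence of binding.

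Cebpb encodes C/EBPβ, a factor of the acute phase and cytokine response that is known to be induced by LPS and interleukin 6. The gene has 1 exon at chr2:167688915-167690418, plus strand. Its level was 45.6, 19.6, 34.2 and 18.9 CPM in vehicle and 195, 129, 81.1 and 147 CPM in LPS replicates 1 to 4. The groups did not overlap, although replicates varied by more than 2-fold in both. Cebpb rose with a log2 fold change of 2.22 (SE 0.34, edgeR adjusted p = 3.29e-04), from 29.6 ± 12.8 to 138 ± 47.0 CPM (SD, n = 4 each), or 4.67-fold. LPS replicate 3 was the lowest of its group, and without it the log2 fold change was 2.41. Exons of Tmem189 on the opposite strand cover 20.7% of the exonic length of Cebpb, and Tmem189 itself rose by 0.86 on the log2 scale. Use of the strand in counting is not given in the sources used here, so reads of the shared stretch cannot be told apart.

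The window before Cebpb is shown beside that of Cebpa as the relative that moved the other way. It covers chr2:167688665-167688914 of GRCm38.p6, plus strand, and the capitals mark the cyclic AMP response element core TGACG on either strand (CGTCA on the other).
Cebpb: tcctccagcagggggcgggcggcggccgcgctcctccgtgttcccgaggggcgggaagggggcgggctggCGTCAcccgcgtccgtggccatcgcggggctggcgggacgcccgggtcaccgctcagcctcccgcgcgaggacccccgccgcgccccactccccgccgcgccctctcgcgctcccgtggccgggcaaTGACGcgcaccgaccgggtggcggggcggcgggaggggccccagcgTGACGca
There were 3 matches, 180, 53 and 7 bases before the start, and 17.8% of all windows held at least 1. The window had no TTGCG on either strand, and its GC content of 81.6% compares with a median of 52.4% over all windows and 66.4% for Cebpa.

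Cebpd encodes C/EBPδ, a partner of C/EBPβ that is nearly silent in many resting cells and rises early in the acute phase response. It is a gene of 1 exon at chr16:15887286-15891031, plus strand. Vehicle replicates 1 to 4 stood at 19.7, 8.65, 22.4 and 8.95 CPM, and LPS replicates 1 to 4 at 53.6, 26.8, 7.23 and 37.8 CPM. LPS replicates 1, 2 and 4 lay above all vehicle libraries and LPS replicate 3 below all of them. The log2 fold change of 1.07 (SE 0.54, edgeR adjusted p = 0.105) did not pass the test. Without LPS replicate 3 it was 1.40 and passed (edgeR adjusted p = 0.0111), and DESeq2 with all 8 libraries gave 1.13 (adjusted p = 0.0472). Exons of Spidr cover 15% of the gene on the opposite strand, and Spidr rose by 1.62 on the log2 scale, in all 4 LPS libraries alike (59.2 to 72.2 CPM against 20.1 to 21.9 CPM in vehicle).

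LPS replicate 3 was the lowest LPS library for Spi1, Cebpa, Cebpb and Cebpd and the highest for Bhlhe41, Mef2a, Mef2c and Runx1. It also had the most counts and, at 0.701, the lowest TMM factor. Within replicate numbers, the log2 difference of LPS from vehicle was -0.27 in replicate 3 and 0.79 to 1.03 in the other 3 for Spi1, and -1.62 against 1.44 to 2.07 for Cebpd.

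Maf encodes c-MAF, a large MAF factor that activates Il10 and genes of resident macrophages. It lies at chr8:115682942-115707794 on the minus strand. The vehicle replicates 1 to 4 held 414, 534, 622 and 496 CPM of Maf and the LPS replicates 641, 719, 674 and 676 CPM. All LPS libraries lay above all vehicle libraries, by a narrow gap between 622 and 641 CPM. The log2 fold change of 0.39 (SE 0.14, edgeR adjusted p = 0.0326) was the smallest of the 7 calls, and it became -0.28 when libraries were scaled by their totals alone. The call was lost without vehicle replicate 1 (edgeR adjusted p = 0.0625), 2 (0.0576) or 4 (0.0693), without LPS replicate 2 (0.0782) or 4 (0.0637), when genes with low counts were kept (0.0939), and with upper quartile scaling (0.138). Windows of 50 bases shared with other genes made up 4.64% of the Maf transcripts, and exons of Gm15655 on the opposite strand cover 5.34% of the exonic length.

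Mef2a and Mef2c encode MEF2A and MEF2C, MADS-box factors that bind an AT-rich motif and are held inactive by class IIa histone deacetylases. Mef2a, at chr7:67231163-67372858 on the minus strand, stood at 324, 322, 299.8 and 339 CPM in vehicle and at 172, 152, 186 and 162 CPM in LPS replicates 1 to 4. The groups were tight and did not overlap. Mef2a fell by 0.94 on the log2 scale (SE 0.10, edgeR adjusted p = 4.20e-05), 1.91-fold. Mef2c, at chr13:83504034-83667080 on the plus strand, stood at 193, 286, 257 and 304 CPM in vehicle and at 16.8, 16.5, 19.5 and 15.8 CPM in LPS replicates 1 to 4. All LPS libraries lay under 20 CPM, and vehicle replicate 1 was the lowest of its group. Mef2c fell by 3.92 on the log2 scale (SE 0.17, edgeR adjusted p = 1.75e-07), 15.2-fold. Left out in turn, no library changed either call, and the log2 fold change of Mef2c stayed between -4.01 and -3.81.

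The windows before Mef2a and before the most upstream annotated start of Mef2c are shown because these relatives fell by very different amounts. The Mef2a window is chr7:67372859-67373108, minus strand, and the Mef2c window chr13:83503784-83504033, plus strand, both of GRCm38.p6. Capitals mark GAGGAA, the purine-rich core that PU.1 recognises, searched on both strands.
Mef2a: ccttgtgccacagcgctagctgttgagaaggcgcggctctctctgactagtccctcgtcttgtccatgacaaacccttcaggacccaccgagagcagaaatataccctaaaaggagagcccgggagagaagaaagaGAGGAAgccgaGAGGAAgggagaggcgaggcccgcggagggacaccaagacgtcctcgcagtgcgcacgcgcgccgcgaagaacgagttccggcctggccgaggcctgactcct
Mef2c: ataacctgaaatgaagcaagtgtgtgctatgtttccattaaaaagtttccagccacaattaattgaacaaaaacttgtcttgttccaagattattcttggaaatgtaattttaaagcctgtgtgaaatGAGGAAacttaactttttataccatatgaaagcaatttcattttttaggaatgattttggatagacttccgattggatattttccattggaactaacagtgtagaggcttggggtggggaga
Mef2a held 2 matches, 114 and 103 bases before the start, and Mef2c 1 match at 122 bases, where 23.3% of all windows held at least 1. GC content was 61.6% for Mef2a and 33.6% for Mef2c. The MEF2 motif itself, searched by its 10-base degenerate form and present in 2.92% of all windows, matched in neither. RefSeq lists 2 further starts of Mef2c, and the window before the next of them held GAGGAA 186 bases upstream.

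Runx1 encodes the DNA-binding subunit of core binding factor, which PU.1 needs for its own expression in early blood cells. The gene lies at chr16:92601466-92826149 on the minus strand. Its level was 137, 191, 173 and 167 CPM in vehicle and 176, 181, 203 and 172 CPM in LPS replicates 1 to 4. The groups overlapped, with vehicle replicate 1 lowest and LPS replicate 3 highest. The log2 fold change of 0.13 (SE 0.12, edgeR adjusted p = 0.362) did not pass the test. It was -0.027 with upper quartile scaling and -0.55 (edgeR adjusted p = 0.00166) with library totals alone, so the direction for Runx1 is set by the scaling. The RUNX core TGTGGT, held by 14% of all windows, was absent from both windows before the RefSeq starts of Runx1.

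Bhlhe41 encodes a basic helix-loop-helix repressor, also called DEC2, that binds E-boxes and acts in the circadian clock and in tissue macrophages. It lies at chr6:145858243-145865558 on the minus strand. Vehicle replicates 1 to 4 held 62.0, 36.5, 38.5 and 41.3 CPM of Bhlhe41 and LPS replicates 1 to 4 held 17.95, 8.06, 24.2 and 8.60 CPM. The groups did not overlap, vehicle replicate 1 was the highest library, and LPS replicates 1 and 3 stood above LPS replicates 2 and 4. Bhlhe41 fell by 1.60 on the log2 scale (SE 0.35, edgeR adjusted p = 0.00285), 3.04-fold. The antisense gene Gm43909, which covers 19.0% of its exonic length, fell by 1.56 on the same scale from 2.53 to 0.855 CPM on average.

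The window before Bhlhe41 is shown because its product binds the E-box CACGTG, marked in capitals. It is chr6:145865421-145865670 of GRCm38.p6, minus strand. Counted from the RefSeq start, it reaches into the GENCODE span of the gene given above.
Bhlhe41: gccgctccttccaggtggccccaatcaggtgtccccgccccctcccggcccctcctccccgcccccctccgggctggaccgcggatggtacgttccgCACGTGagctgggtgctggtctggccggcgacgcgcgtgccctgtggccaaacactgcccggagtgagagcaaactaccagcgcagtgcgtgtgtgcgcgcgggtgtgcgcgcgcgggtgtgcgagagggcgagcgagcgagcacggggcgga
Its match lies 153 bases before the start, and 6.02% of all windows held at least 1. A window before Runx1 held the same E-box, 71 bases before the RefSeq start. That end of the window lies inside the GENCODE span of Runx1 given above. Across the 9 windows found for 6 factors GAGGAA matched in 4. Of the other 3 motifs searched, the STAT motif TTCNNNGAA matched in 1 and the AP-1 motif TGANTCA in 1 of the 9 windows, against 7.02% and 6.75% of all windows. The kB motif matched in none, against 3.90% of all windows. Windows of Spi1, Cebpd and Maf were not analysed here.

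**Figure D2:**
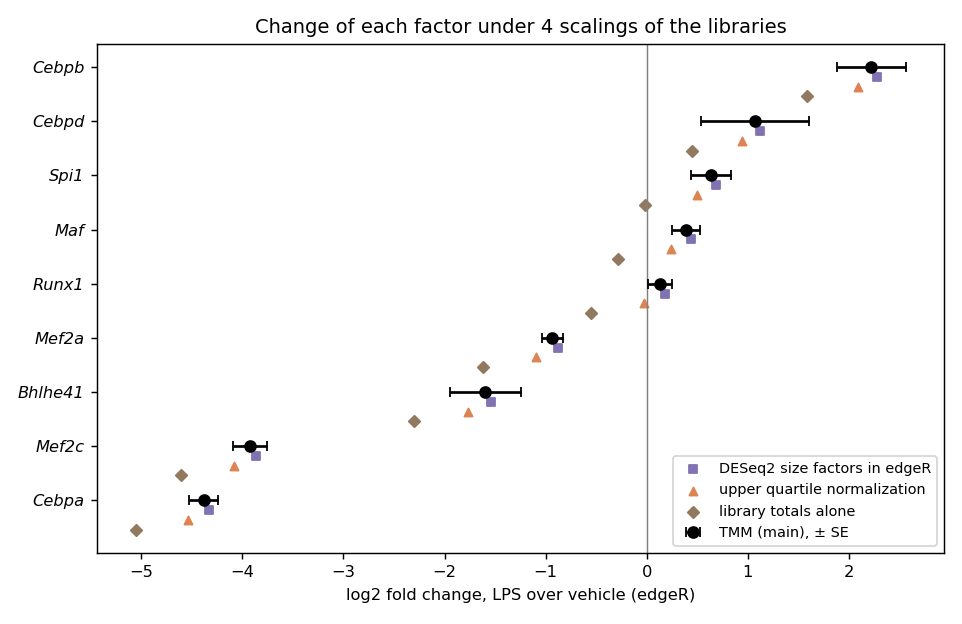
Log2 fold change of LPS over vehicle (horizontal axis) for the 9 factors from edgeR with TMM scaling (black, ± SE) and with 3 other scalings of the libraries. Cebpa, Mef2c, Bhlhe41 and Mef2a stay below 0 and Cebpb and Cebpd above 0 under all 4, whereas Spi1, Maf and Runx1 cross 0 with library totals alone and Runx1 also with the upper quartile.

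The scaling moved the whole distribution of changes. The median log2 fold change over all genes was -0.11 with TMM, -0.27 with the upper quartile and -0.79 with library totals alone. Relative to the median under library totals, Spi1 lay at 0.78, Maf at 0.51 and Runx1 at 0.24. Of the 9 factors, 1 was called higher and 5 lower with library totals alone, against 3 and 4 in the TMM fit, and over all genes the split was 1988 higher and 8457 lower against 4191 and 4686.

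Per kilobase of exonic length, the factors changed order. This length joins all annotated exons of a gene, from 1504 bases for Cebpb to 15715 for Mef2c. Which transcripts the cells made was not examined, so the order inside a group depends on this choice of length. In vehicle, mean levels fell from Spi1 (101 CPM per kb) through Cebpa (70.2), Maf (62.7), Mef2a (21.9), Cebpb (19.7), Mef2c (16.6), Runx1 (13.9) and Bhlhe41 (6.64) to Cebpd (3.98). The ranges of neighbours overlapped for Cebpa and Maf, for Mef2a and Cebpb and for Cebpb and Mef2c. They also overlapped for Mef2c and Runx1 and for Bhlhe41 and Cebpd. These neighbours were not compared within single libraries. In LPS the order was Spi1 (157 CPM per kb), Cebpb (91.8), Maf (82.2), Runx1 (15.2), Mef2a (11.4), Cebpd (8.37), Cebpa (3.36), Bhlhe41 (2.19) and Mef2c (1.09), and only Maf and Runx1 and Runx1 and Mef2a, among neighbours, had ranges that did not overlap. Cebpa passed from percentile 97.1 to 49.8 of all tested genes on this scale and Mef2c from 84.3 to 30.6, while Cebpb went from 86.8 to 96.0. Spi1 stood at percentile 98.2 and 97.6.

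**Figure D3:**
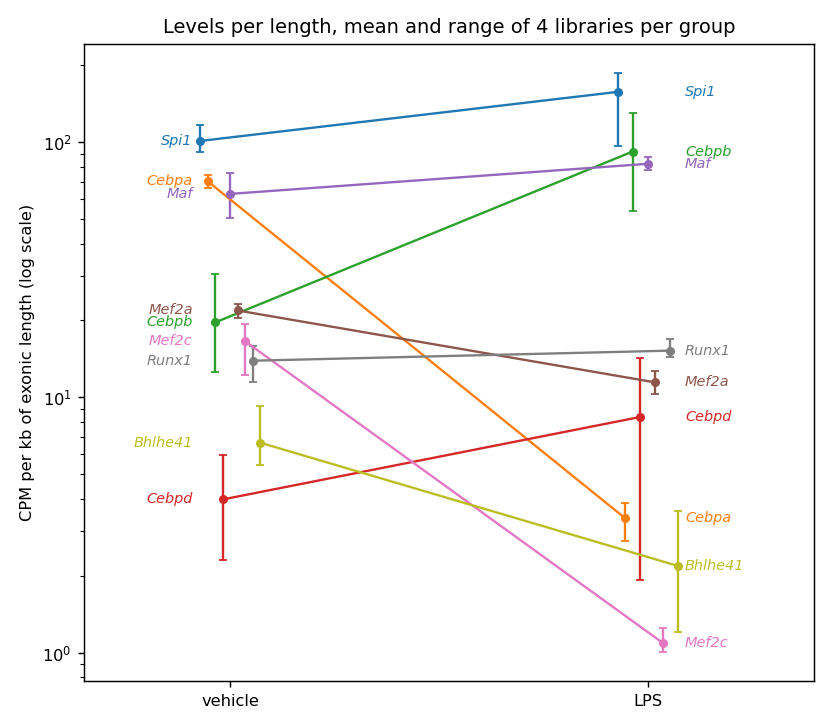
Mean level per kilobase of exonic length in CPM (vertical axis, log scale) of each factor in vehicle and LPS libraries, with the lowest and highest of 4 libraries as bars. Spi1 leads in both groups, Cebpa drops from 70.2 to 3.36 and Mef2c from 16.6 to 1.09 CPM per kb, and Cebpb climbs from 19.7 to 91.8 CPM per kb.

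Ratios of related factors inside a library do not depend on scaling between libraries, and 6 of the 8 ratios examined had no overlap between groups. How often ratios of other genes separate in this way was not counted, and 64.1% of all tested genes were called. For each of these 6 ratios the two-sided exact permutation p was 0.0286, the smallest that 70 divisions of 8 libraries allow. Adjusted over the 8 ratios by the Benjamini-Hochberg method it was 0.0381. The ratios were chosen with earlier results of these data known, and they join genes that were also tested singly. These p-values are therefore a description and not independent support. The ratio of Cebpb to Cebpa, per length, was -1.29, -2.35, -1.55 and -2.55 on the log2 scale in vehicle and 5.39, 4.48, 4.29 and 4.69 in LPS replicates 1 to 4. Cebpa transcripts thus outnumbered those of Cebpb in every vehicle library and were outnumbered in every LPS library, a difference of 6.65 in the mean log2 ratio. The ratio of Cebpd to Cebpa moved from -4.27 to 1.00 on average, and was -0.51 in LPS replicate 3 against 0.90 to 2.21 in the other LPS libraries. Cebpb also gained on Cebpd, from a mean of 2.34 to 3.71.

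Among the other families, Mef2a stood 0.42 above Mef2c on the log2 scale in vehicle and 3.39 above it after LPS. Bhlhe40, the paralog of Bhlhe41, rose from 13.5 to 31.3 CPM (log2 fold change 1.22, edgeR adjusted p = 0.00121), and the ratio of Bhlhe40 to Bhlhe41 turned from -1.21 to 1.72. The ratio of Cbfb, the non-DNA-binding partner, to Runx1 fell by 0.27. Runx2 to Runx1 (-6.02 to -6.93, exact permutation p = 0.171) and Spi1 to Irf8, a partner of PU.1 (1.82 to 2.01, exact permutation p = 0.314), overlapped between groups.

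**Figure D4:**
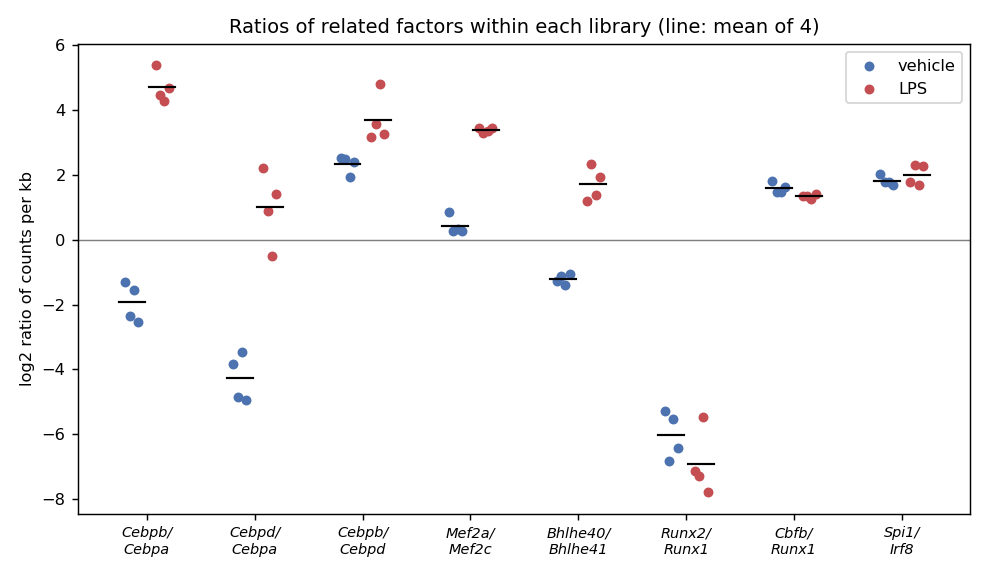
Log2 ratio of counts per kilobase of related factors (vertical axis) in each vehicle (blue) and LPS (red) library, with the mean of 4 as a line. The groups lie apart for 6 ratios, with the Cebpb to Cebpa ratio moving from -1.93 to 4.71, and overlap for Runx2 to Runx1 and Spi1 to Irf8.

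The other members of the same families were read against the background of 30.3% higher and 33.8% lower. Of 14 tested ETS genes, 6 rose and 3 fell. Spic, a PU.1 relative of iron-recycling macrophages, rose from 0.293 to 14.5 CPM (log2 fold change 5.59) and Ets2 from 117 to 862 CPM (2.88), whereas Fli1 (-0.99) and Etv3 (-0.69) fell. Of 6 tested genes on the list of C/EBP relatives, 2 rose and 3 fell. Among the falls, Cebpz (-1.02) was on the list by its symbol. Ddit3, which encodes the stress factor CHOP, rose by 3.10 and Nfil3, a repressor that shares binding sites with the PAR factors, by 2.05 on the log2 scale, and the clock-controlled Dbp (-2.59) and Tef (-1.42) fell. All 5 tested genes of the MAF list changed, 4 higher and 1 lower: the small MAF genes Maff (3.91) and Mafk (1.32) led the rises, and Bach2 (-1.99), a partner of small MAF proteins, fell.

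Of the 5 tested genes of the MEF2 family and its repressors, Hdac9 (1.24) and Hdac7 (0.45) rose and Hdac5 (-1.43), Hdac4 (-1.39) and Mef2d (-0.64) fell, so that Mef2a, Mef2c and Mef2d all ended lower while the deacetylases that bind them split. Among 8 genes that are other RUNX genes or partners of RUNX proteins, 2 rose and 1 fell. Runx3 rose from 3.51 to 27.2 CPM (log2 fold change 2.96) and the co-repressor Tle4 by 0.89, and Cbfa2t3 fell by 2.31. Of 14 basic helix-loop-helix factors and their inhibitors, 5 rose and 4 fell, with Hes1 (1.80) and Id2 (1.28) at the upper end and Id3 (-2.11) and the lysosomal regulator Tfeb (-1.95) at the lower end. Of 15 other tested factors of microglia and macrophages, 5 rose and 7 fell. Klf6 rose by 2.31 and Klf4 by 1.74, whereas Pparg fell by 5.56 and Sall1, a factor that marks microglia among macrophages, fell by 2.10 from 15.9 to 3.72 CPM. The Tribbles gene Trib1, whose product brings C/EBPα to the ubiquitin ligase COP1, rose by 0.66 and its relative Trib3, better known as a target of stress signalling, by 4.54. Trib2 was not called (log2 fold change -1.96, edgeR adjusted p = 0.0606), with 0 counts in LPS replicate 3.

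Genes known from other work as targets of these factors moved in different ways. Their counts are likewise read against 30.3% higher and 33.8% lower over all tested genes. Of 12 tested C/EBP targets, 11 rose and none fell, with a median log2 fold change of 10.15 against -0.11 over all genes. This list consists largely of inflammatory genes that LPS also induces through NF-kB. Il12b (0 to 1 counts in vehicle libraries), Arg1 (2 to 7), Il6 (0 to 12) and Csf3 (0 to 34) passed the filter only through the LPS libraries. These genes could only be called higher, so the number of rises was in part fixed by the filter. The count and median describe the list and do not test the activity of C/EBP factors. Nos2, the inducible nitric oxide synthase, went from 1.02 to 11584 CPM on average and Il6 from 0.121 to 500.5 CPM. Hp, the haptoglobin gene and the exception, stood at 227 CPM in vehicle replicate 1 and 210.2 CPM in LPS replicate 1 and at 6.78 to 45.6 CPM in the other 6 libraries. Of the 16 PU.1 targets on the list, 7 rose and 3 fell. Fcgr1 (2.53) and Msr1 (2.38) led on one side and Lyz2 (-1.45) and Tlr4 (-1.17) on the other. Targets outside the list were not counted, among them Csf1r, which was listed as a microglial marker and fell (-2.90).

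Of the 5 targets of MAF, the interleukin gene Il10 rose from 1.34 to 296 CPM (log2 fold change 7.78), and Cd5l (-5.90), C1qc (-2.45), C1qa (-2.24) and C1qb (-1.34) fell. Of the 4 MEF2 targets, Hdac9 rose, Nr4a1 (-1.40) and Klf2 (-1.23) fell and Jun was not called (-0.19, edgeR adjusted p = 0.539). Of 12 tested genes of the clock, in which Bhlhe41 acts as a repressor, 5 rose and 6 fell. This list also holds clock-controlled genes such as Dbp, already counted among the relatives of C/EBP. Cry2 (1.43) and Per2 (1.33) rose most, and Per3 (-3.05) and Dbp (-2.59) fell most. Over all these further lists, 115 of 128 genes were tested, and 52 rose and 34 fell. Over all tested genes, 30.3% were higher and 33.8% lower. With library totals alone 37 of the listed genes rose and 57 fell.

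**Figure D5:**
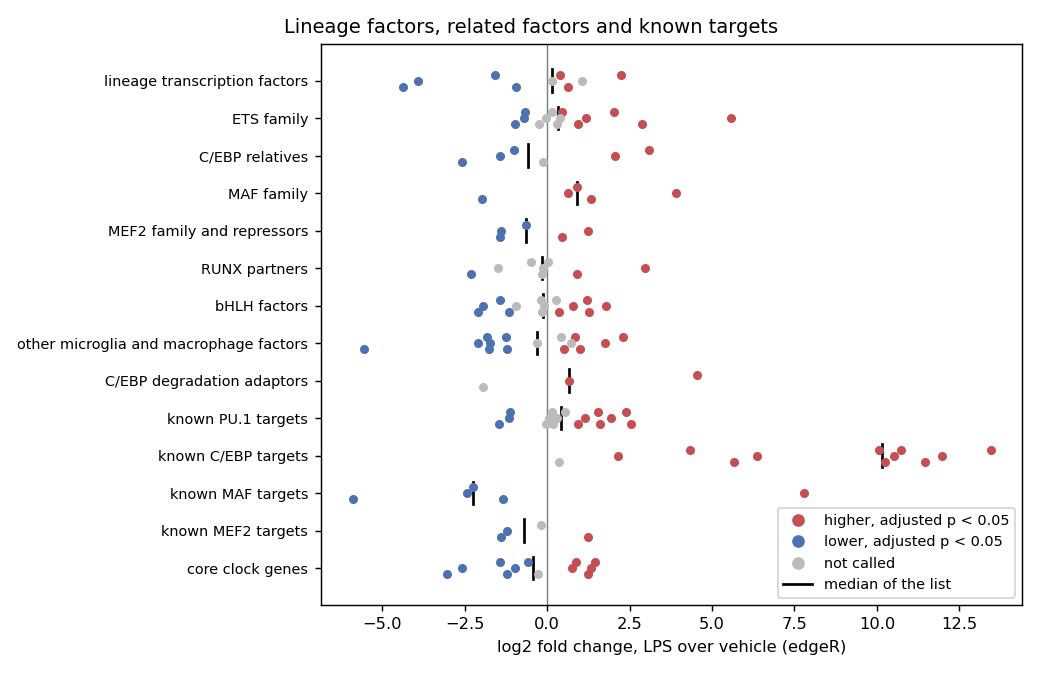
Log2 fold change of LPS over vehicle (horizontal axis) of every tested gene of the lineage factors and of each further list, coloured by its call, with the median of a list as a black line. The known C/EBP targets lie around a median of 10.15, and the other lists spread on both sides of 0. Some C/EBP targets had too few counts in vehicle libraries to be called lower.

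The genes with profiles most like each factor were sought among 7793 genes, by the root mean square difference of log2 CPM from the vehicle mean over the 8 libraries. Nearest to Cebpa were Kank2 (difference 0.16) and Syngr1 (0.21), with log2 fold changes of -4.35 and -4.18. Mef2c was followed most closely by Rcbtb2 (0.18) and Galc (0.20), and Mef2a by Smad5 (0.06) and Arhgap21 (0.06). For the rising factors the nearest genes were Gpr84 (0.23) and Notch1 (0.28) for Cebpb, Pik3cd (0.07) and Anks1 (0.07) for Spi1, and Arfgap2 (0.10) and Lrrc40 (0.10) for Maf. Cebpd was followed by Junb (0.34) and Ier2 (0.42), the largest distances of the 9 factors, Runx1 by Eif2s1 (0.08) and Cops4 (0.08), and Bhlhe41 by Jmy (0.29) and Acox3 (0.30). With 8 libraries in 2 groups, such likeness rests mostly on the difference between the groups.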

How the data were processed

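RNA of 8 libraries, 4 vehicle and 4 LPS, was sequenced in single-end reads. The authors filtered, aligned (GSNAP, GRCm38) and counted the reads with HTSeqGenie, kept uniquely aligned reads, and deposited raw counts per Ensembl gene without normalization. The labels name a stranded and the methods another TruSeq kit, and neither states the use of strand or the annotation release. Rows that match no symbol held at most 0.00759% of a library's counts. Symbols, positions and exonic lengths came from GENCODE vM21 and promoter sequences from RefSeq (GRCm38.p6).

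Differential expression was tested with edgeR 4.0.16 in R 4.3.3 (TMM, filterByExpr with a minimum count of 10 and minimum total count of 15, two-sided quasi-likelihood test), with Benjamini-Hochberg adjustment over all 13847 tested genes and a threshold of 0.05. Ratios took counts plus 0.5 per kilobase within a library and were compared by exact permutation over the 70 divisions. A gene with no more than 3 counts in any library of a group was taken to be at the floor. A gene with few counts in a group can pass the filter through the other group alone, and its call can then go only that way. Python 3.11.15 with pandas 2.3.3, numpy 2.4.6 and scipy 1.17.1 was used for the rest, and matplotlib 3.10.9 for figures. The fits were tested on simulated data. All 8 columns were mapped to samples.

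The 9 factors, the further lists and the ratios were chosen with earlier results of these data known. One listed gene and its ratio are not reported here. Named genes were the 9 factors, the genes of the ratios, the 2 largest rises and 2 largest falls among the called genes of each list, and the 2 protein-coding genes nearest in profile among those whose log2 CPM averaged at least 3. Genes that overlap a factor on the other strand, Mef2d, C1qa, C1qb, Trib2, Hp and Jun were named after their values were seen. The same holds for Il12b, Arg1, Csf3, Cebpz and Csf1r. After subtraction of the group means, vehicle and LPS libraries of the same number correlated with r of 0.373, 0.196, 0.171 and 0.108 over 8010 genes, all over 0.1, and the numbers were treated as pairs in an alternative fit. For replicates 2 and 4 the exchanged pairs reached 0.146 and 0.137. Between the counts of vehicle replicates 2 and 4, the chi-square per degree of freedom was 10.1, against at least 32.8 for other vehicle pairs. Between LPS replicates 2 and 4 it was 6.45, against at least 54.9 for other LPS pairs. Whether replicates 2 and 4 share an origin was not tested. The other alternatives were DESeq2 1.42.0, its size factors, upper quartile and total scaling, other filters and thresholds, and leaving out each library.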

Additional observations from a re-analysis of the deposited data

Results flagged for a closer look

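One value stood apart from its group by Dixon's test among the 34 groups of 4 libraries examined, where chance alone flags about 1 group in 20. The log2 ratio of Mef2a to Mef2c was 0.85 in vehicle replicate 1 and 0.26 to 0.32 in vehicle replicates 2 to 4. Mef2c was lowest in that library among the vehicle libraries (193 CPM), while Mef2a (324 CPM) lay inside the range of the others. All 4 LPS libraries lay at 3.30 to 3.46, above every vehicle library.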

How the results depend on the processing

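Cebpa, Cebpb, Mef2a, Mef2c and Bhlhe41 kept their direction and their call under every scaling, filter, test, adjusted p threshold and left-out library tried. The number of factors called fell from 7 to 4, without Mef2a, Spi1 and Maf, when an absolute log2 fold change of at least 1 was required as well. The number called higher fell from 3 to 1 with upper quartile scaling, with library totals alone, at an adjusted p of 0.01 and with the minimum change, and lay between 1 and 4 when libraries were left out in turn. With library totals alone Spi1 turned to -0.012, Maf to -0.28 and Runx1 to -0.55, Runx1 was -0.027 with the upper quartile, and 57 in place of 34 listed genes were lower. The median of all genes moved with these scalings, as given above. With a replicate block, which treats the numbers as pairs, 7 factors were called as without it, Spi1 at 0.60 (edgeR adjusted p = 0.0374), and Cebpd was 1.00 (0.154). The 6 ratios kept 1 sign in all 4 pairs, where sign flips cannot give an exact p under 0.125, and 6 to 7 ratios had no overlap when libraries were left out. Over all genes, 8031 to 10445 were called. The lowest count of any factor in any library was 136, for Cebpa in LPS replicate 1.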
